A study of Homo sapiens with 12 samples.

Results

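The 12 elements described here are 8-base RNA sequences that match the Pumilio consensus at every fixed position except position 6. They were found by sequence among the 1006 elements listed in all 12 libraries, 1005 of them of 8 bases. Positions count from 1 at the element's 5′ end. The consensus has T, G, T and A at positions 1 to 4, any base at position 5, A at position 6, T at position 7 and A at position 8. Each member carries C, G or T at position 6, written A6C, A6G or A6T, and each of these changes occurs beside all 4 bases at position 5. The rule uses sequence alone, and it was set with earlier results of these data known.

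The study expressed human PUM2 fused to ADARcdMUT, an adenosine deaminase construct named so in the sample titles, together with a pool of reporter mRNAs, in HEK293T, an established human embryonic kidney cell line labelled wild type. Every group has 3 libraries, given as biological replicates in the series design. In 1 group the fusion was not induced, in the others its expression was induced with doxycycline and the titles give 25 ng or 250 ng, and the control group carried ADARcdMUT without PUM2, titled 1000 ng. The labels do not say what these amounts refer to, so the fusion and the ADARcdMUT amounts may not be on 1 scale, and all groups carried the same reporter pool. Each reporter holds 1 element near a recorder hairpin, and editing is given as the percent of the 7 recorder adenosines per read that were edited. The libraries held 11235321 to 25127959 reads, and a member was covered by 4136 to 40222 reads in a library.

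Pumilio proteins bind single-stranded RNA with a domain of repeated helical units, in which successive repeats contact successive bases, so that an element is read base by base. The base at position 5 is not fixed in the consensus, and the adenine at position 6 lies in the 3′ part that follows the UGUA core. Bound PUM2 is known to repress its target mRNAs, in part by recruiting deadenylases, and in this assay a protein that dwells on the element brings the deaminase to the recorder.

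The members and the consensus elements they derive from are shown because each comparison turns on 1 letter. The capital marks position 6, and T stands for U, as in the deposited files.
A6C, A at position 5: tgtaaCta
A6C, C at position 5: tgtacCta
A6C, G at position 5: tgtagCta
A6C, T at position 5: tgtatCta
A6G, A at position 5: tgtaaGta
A6G, C at position 5: tgtacGta
A6G, G at position 5: tgtagGta
A6G, T at position 5: tgtatGta
A6T, A at position 5: tgtaaTta
A6T, C at position 5: tgtacTta
A6T, G at position 5: tgtagTta
A6T, T at position 5: tgtatTta
Consensus, A at position 5: tgtaaAta
Consensus, C at position 5: tgtacAta
Consensus, G at position 5: tgtagAta
Consensus, T at position 5: tgtatAta
The element tgtatGta holds TGTA at 2 starts, positions 1 and 5, and every other member holds it once, at position 1. The element tgtatTta holds ATTTA, the core of AU-rich elements, which no other member does.

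With the fusion induced, each member was edited above its non-induced level and below its consensus element. The median of the 12 members was 1.74% ± 0.104 (SD, n = 3) without induction, 5.14% ± 0.311 at 25 ng and 9.55% ± 0.0765 at 250 ng. The 4 consensus elements had medians of 1.79% ± 0.0794, 7.24% ± 0.603 and 13.3% ± 0.288 in the same groups. The median of all 1006 elements was 1.82%, 4.34% and 7.87%, so the members lay between the consensus and the pool once the fusion was induced. With ADARcdMUT alone the medians were 2.01% ± 0.199 for the members, 1.80% ± 0.0878 for the consensus and 1.95% ± 0.120 for all elements.

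Among the A6G members, in which one purine replaces the other, tgtaaGta was edited at 10.8, 10.6 and 10.9% in the 3 libraries at 250 ng, 5.40, 6.45 and 5.27% at 25 ng and 1.61, 2.09 and 1.55% without induction. Its mean of 10.8% ± 0.115 at 250 ng was the highest of the 12 members and ranked 15 of the 1005 elements of 8 bases. The element tgtatGta, with its second TGTA, had 10.1, 10.3 and 10.7% at 250 ng, 5.62, 5.76 and 5.46% at 25 ng and 1.59, 2.09 and 1.81% without induction. For tgtacGta the values were 9.69, 9.32 and 9.57%, 5.07, 6.01 and 4.78% and 1.65, 1.65 and 1.74% in the same order of groups. The values of these members, as of all 12, did not overlap between any of the 3 fusion groups. Of all 1006 elements, 100% were called higher at each of these steps in the limma test given below. The element tgtagGta was lower than the other A6G members in every library at 250 ng and at 25 ng, with 8.19, 8.37 and 8.72% and 4.42, 4.51 and 4.23%, and had 1.67, 1.82 and 1.80% without induction.

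Of the A6T members, tgtaaTta had 10.05, 10.04 and 10.5% at 250 ng, 5.70, 6.19 and 5.35% at 25 ng and 1.57, 1.67 and 1.71% without induction. At 25 ng its mean of 5.75% ± 0.422 was the highest of the members, ranking 17 of 1005, and 5.71% in tgtaaGta was next. The element tgtatTta, the one with ATTTA, had 9.95, 9.88 and 10.4%, 5.13, 5.29 and 4.85% and 1.55, 2.19 and 1.78%. It had the fewest reads of the members in each group, 4136 to 13792 in a library, and its ADARcdMUT values of 2.79, 2.38 and 1.38% were the most widely spread. For tgtacTta the editing was 9.60, 9.42 and 9.61%, 4.98, 4.93 and 5.20% and 1.76, 1.67 and 1.80%. The element tgtagTta was again the lowest of its 4, with 8.69, 8.57 and 8.89% at 250 ng and 4.70, 4.81 and 4.57% at 25 ng, and 1.58, 1.70 and 1.54% without induction.

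The A6C members had the lowest median of the 3 new bases at 250 ng, 9.20% ± 0.0508, against 9.95% ± 0.165 for A6G and 9.82% ± 0.193 for A6T. The element tgtacCta had 9.55, 9.76 and 9.64% at 250 ng, 5.001, 5.68 and 4.92% at 25 ng and 2.04, 1.85 and 1.76% without induction. In tgtatCta the values were 9.61, 9.51 and 9.45%, 5.12, 5.76 and 5.05% and 1.66, 1.84 and 1.74%. Both lay above tgtaaCta at 250 ng in every library, which had 8.76, 8.84 and 9.05% there, 4.998, 5.13 and 4.65% at 25 ng and 1.63, 1.98 and 1.71% without induction. The lowest member at 250 ng was tgtagCta with 8.16, 8.07 and 8.20%, a mean of 8.14% ± 0.0669 that ranked 250 of 1005. It had 4.42, 4.69 and 4.35% at 25 ng and 1.75, 1.97 and 1.85% without induction.

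The consensus elements were edited at 12.9, 13.3 and 13.6% (tgtaaAta), 13.5, 13.0 and 13.8% (tgtacAta), 11.7, 11.3 and 11.4% (tgtagAta) and 13.9, 13.5 and 14.2% (tgtatAta) at 250 ng. At 25 ng the same elements had 7.22, 7.997 and 6.69%, 7.25, 8.39 and 7.01%, 6.09, 6.30 and 5.92% and 7.53, 7.71 and 6.61%. In both induced groups all 3 libraries of each of the 12 members lay below all 3 libraries of its consensus element. How many of all pairs separate in this way was not counted. Single substitutions at the other fixed positions were also called lower than the consensus in the pair test below. At both amounts these were 12 of 12 at positions 1, 2, 3, 4 and 7, and 11 of 12 at position 8. Of the members, 9 were among the 100 most edited elements at 250 ng and 9 at 25 ng, with ranks of 15 to 250 and 17 to 395.

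Induction of the fusion was tested on the log2 odds of an edit with limma, in 1 fit of the 12 libraries and with adjustment over all 1006 elements, where a call is an adjusted p under 0.05. At 250 ng 12 of 12 members were called higher than without induction, but so were 100% of all elements, and the same held for 25 ng against no induction (12 members, 100%) and for 250 ng against 25 ng (12 members, 100%). The members' median log2 change was 2.57 at 250 ng and 1.59 at 25 ng, against 2.21 and 1.29 for all elements. As folds of the mean percent, members rose 4.38-fold (tgtagCta) to 6.19-fold (tgtaaTta) at 250 ng and 2.42-fold to 3.49-fold at 25 ng, and the consensus elements 6.58-fold to 7.68-fold and 3.50-fold to 4.11-fold. Both comparisons share the non-induced libraries.

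Because the whole pool rose, the change was also tested after each library was centred on its median log2 odds. At 250 ng against no induction 9 of 12 members were called higher relative to the library median, where 9.64% of all elements were, and 0 members were called lower, where 3.38% of all were. The largest of these changes was in tgtaaGta (0.57, SE 0.08, adjusted p = 0.000167), followed by tgtaaTta (0.56, SE 0.05, adjusted p = 3.36e-06) and tgtatGta (0.44, SE 0.08, adjusted p = 0.00124). The smallest called changes were 0.27 in tgtacCta (adjusted p = 0.0407) and 0.24 in tgtaaCta (adjusted p = 0.0404). With any 1 of the 250 ng libraries left out both fell short (adjusted p of 0.106 to 0.135), and 7 members were called. Leaving out a non-induced library gave 7 or 8, with tgtaaCta lost without replicate 1 or 3 and tgtacCta without replicate 2 or 3. Calls among all elements or pairs were not counted with a library left out, here or below. Such member counts cannot be set against the pool. Not called were tgtagCta (0.02, SE 0.05, adjusted p = 0.792), tgtagGta (0.15, SE 0.07, adjusted p = 0.183) and tgtatTta, whose change of 0.39 had the widest error (SE 0.15, adjusted p = 0.107).

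At 25 ng against no induction 7 of 12 members were called higher relative to the library median, against 7.06% of all elements, and 0 lower, against 2.19%. The called members included tgtaaTta (0.57, SE 0.05, adjusted p = 7.83e-06), tgtaaGta (0.48, SE 0.08, adjusted p = 0.00102), tgtacGta (0.41, SE 0.08, adjusted p = 0.00484) and tgtatGta (0.39, SE 0.08, adjusted p = 0.00440). Also called were tgtagTta (0.30) and tgtacTta (0.29), the latter not without 25 ng replicate 1 or 3 or non-induced replicate 2 (adjusted p of 0.0581 to 0.0807). Of the A6C members tgtatCta was called (0.36, SE 0.05, adjusted p = 0.000146), and tgtaaCta fell just short (0.24, SE 0.07, adjusted p = 0.0504). Again tgtagCta (0.02) and tgtagGta (0.06) were not called, with adjusted p of 0.852 and 0.671. Between 250 ng and 25 ng 0 members were called relative to the median, as were 0% of all elements, and 0 members had an unadjusted p under 0.05. A p that misses the threshold does not show equal responses.

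The cost of losing the consensus adenine was tested on the difference in log2 odds between a member and its consensus element within each library. The fit covered all 4845 pairs of elements of 8 bases that differ at exactly 1 position, and pairs share elements, so they are not independent. At 250 ng all 12 members were called lower than their consensus element, where 21.4% of all pairs were called in either direction. The differences ran from -0.34 to -0.65, with a median of -0.53. Both extremes had A at position 5: tgtaaCta (-0.65, SE 0.10, limma adjusted p = 0.000134), an odds ratio of 0.639, and tgtaaGta (-0.34, SE 0.10, limma adjusted p = 0.0185), an odds ratio of 0.790. The smallest p belonged to tgtagCta (-0.55, SE 0.05, limma adjusted p = 3.31e-06) and tgtacGta (-0.56, SE 0.06, limma adjusted p = 3.93e-06). With 1 of the 250 ng libraries left out 9 or 10 members were called, and the share of all pairs called was not counted in these fits. The difference of tgtaaGta (adjusted p of 0.0687 to 0.106) and of tgtatTta (0.124 to 0.149) then missed the threshold whichever library was left out, and that of tgtatGta missed it without replicate 1 (0.0633) or replicate 3 (0.05003). The errors are pooled over all 4 groups, so these p-values also carry the spread in the other groups. Within 250 ng tgtaaGta and its consensus element had 10.8, 10.6 and 10.9% against 12.9, 13.3 and 13.6%. For tgtatTta it was 9.95, 9.88 and 10.4%, and for tgtatGta 10.1, 10.3 and 10.7%, against 13.9, 13.5 and 14.2%.

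At 25 ng 12 of 12 members were again called lower than their consensus element, where 18.4% of all pairs were called, with a median difference of -0.49. The largest difference was in tgtacTta (-0.62, SE 0.07, limma adjusted p = 1.75e-05) and the smallest in tgtaaTta (-0.37, SE 0.07, limma adjusted p = 0.000749). Without any 1 of the 25 ng libraries 9 members were called, and tgtaaGta, tgtatGta and tgtatTta were not. Here too the errors are pooled over the groups, and the share of all pairs called was not counted in these fits. From 25 ng to 250 ng the difference changed by -0.13 to 0.06, with 0 members called and 0% of all pairs called (9 pairs of 4845 at an unadjusted p under 0.05). The interval of the change was -0.25 to 0.08 in tgtagCta, the narrowest, and -0.49 to 0.54 in tgtatTta, the widest. The 9 pairs are fewer than an unadjusted threshold of 0.05 would pass among unchanged pairs, so with pooled errors this fit could call little. The absence of calls does not show that the differences were equal at both amounts.

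Without induction 0 of 12 members were called different from their consensus element in the limma pair test, where 5.30% of all pairs were called, and 1 member, tgtacGta, had an unadjusted p under 0.05 (-0.16, SE 0.06, limma adjusted p = 0.122). The gap that came with induction, the change of the difference from no induction to 250 ng, was called in 9 of 12 members, all toward lower, against 17.1% of all pairs. The largest such changes were in tgtagCta (-0.64, SE 0.08, limma adjusted p = 5.39e-05) and tgtaaCta (-0.64, SE 0.14, limma adjusted p = 0.00475). The others were tgtaaGta (-0.31, SE 0.14, limma adjusted p = 0.158), tgtatGta (-0.49, SE 0.17, limma adjusted p = 0.0638) and tgtatTta (-0.54, SE 0.24, limma adjusted p = 0.149), and their changes were not called. The calls of tgtaaTta and tgtagTta were lost without any 1 of the 250 ng libraries, and without non-induced replicate 2 (adjusted p of 0.0653 to 0.111), that of tgtagTta also without non-induced replicate 1 (0.1003). From no induction to 25 ng the change was called in 7 of 12, against 13.0% of all pairs, with a median of -0.48. Of these, tgtatCta was not called without any 1 of the 25 ng libraries (adjusted p of 0.0629 to 0.142) or without non-induced replicate 2 or 3 (0.146 and 0.0848), nor tgtaaCta without 25 ng replicate 2 (0.0584) or non-induced replicate 2 (0.0525).

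How much of the consensus element's excess over the library median a member kept is given as a description. At 250 ng this share ran from 7.31% ± 2.12 (SD, n = 3) in tgtagCta to 53.8% ± 3.67 in tgtaaGta, with a median of 29.8%. It was 43.2% ± 2.71 in tgtaaTta, 41.7% ± 2.995 in tgtatGta and 36.8% ± 2.32 in tgtatTta, so the 4 members that kept most had A or T at position 5. The 3 members with C at position 5 had shares close together, 32.1% ± 4.06 with C, 29.7% ± 3.32 with G and 30.0% ± 1.92 with T. With A at position 5 the shares were far apart, 18.8% ± 0.755 with C against 53.8% ± 3.67 with G. At 25 ng the range was 2.24% ± 5.81 in tgtagGta, which lay below the library median in 1 of the 3 libraries, to 47.3% ± 1.38 in tgtaaTta, with a median of 25.9%.

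The members were then compared with each other, in the same fit, by the base that replaced the adenine. Of the 12 pairs that share a base at position 5, 2 were called at 250 ng, where 21.4% of all pairs were, and the same 2 at 25 ng, where 18.4% were. These counts are near or below the pool's share and are given as a description of the pairs called, both of which set tgtaaCta below another member. At 250 ng tgtaaGta was above it by 0.31, SE 0.07, limma adjusted p = 0.00310, and tgtaaTta by 0.22, SE 0.07, limma adjusted p = 0.0217. At 25 ng the differences were 0.22 and 0.23. For the other bases at position 5 no pair of replacing bases was called in either induced group. Without induction 1 of the 12 pairs was called, against 5.30% of all pairs, tgtagTta below tgtagCta (-0.21, SE 0.06, limma adjusted p = 0.0489). From no induction to 250 ng 3 of the 12 differences changed, near the 17.1% of all pairs, each with the A6C member falling behind: tgtaaGta against tgtaaCta by 0.33, tgtaaTta against tgtaaCta by 0.32 and tgtagTta against tgtagCta by 0.32 (limma adjusted p of 0.0142 to 0.0253). Counted by library, the A6C member was the lowest of the 3 members with the same base at position 5 in 10 of 12 cases at 250 ng and in 4 of 12 at 25 ng.

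An adenosine edited within an element would itself be read as G, so a consensus transcript edited at position 6 would carry the letters of an A6G member. The sources used here do not say how such reads were assigned, and their part in the A6G values was not tested. Each of the 4 A6G members by itself made up 804 to 1353 of every 1000000 reads without induction and 863 to 1481 at 250 ng, as means over libraries. In edgeR's quasi-likelihood test of reads per element 0 of 12 members were called between these groups, as were 0% of all elements, with 2 members and 430 elements at an unadjusted p under 0.05.

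Members were also compared by the base at position 5, which the consensus leaves free. At 250 ng the median of the 3 members was 10.2% ± 0.260 with A, 10.1% ± 0.308 with T, 9.54% ± 0.108 with C and 8.43% ± 0.270 with G at position 5. For each of the 3 replacing bases the member with G at position 5 was the lowest of its 4 in all 3 libraries at 250 ng, 9 of 9 cases, and in 9 of 9 at 25 ng. Without induction this held in 1 of 9 cases and with ADARcdMUT alone in 2 of 9. Among the consensus elements tgtagAta was the lowest of 4 in 3 of 3 libraries at 250 ng and at 25 ng.

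Of the 18 pairs of members that differ at position 5 alone, 5 were called at 250 ng, a count near the 21.4% of all pairs, and in each of them the lower member had G. They are 5 of the 9 pairs that involve G, and 0 of the 9 pairs without G were called. The largest difference was tgtagGta below tgtaaGta (-0.39, SE 0.07, limma adjusted p = 0.000756). The others named by size were tgtatGta above tgtagGta (0.33, SE 0.08, limma adjusted p = 0.00625), tgtagCta below tgtacCta (-0.27, SE 0.07, limma adjusted p = 0.00805) and tgtagTta below tgtaaTta (-0.25, SE 0.06, limma adjusted p = 0.00794). At 25 ng 7 of 18 were called, where 18.4% of all pairs were, 6 of 9 with G and 1 of 9 without it, and tgtagGta was also below tgtacGta there (-0.28, SE 0.09, limma adjusted p = 0.0301). Among the consensus elements 3 of 6 such pairs were called at 250 ng (21.4% of all pairs) and 2 of 6 at 25 ng (18.4%), all with tgtagAta lower. Neither without induction nor with ADARcdMUT alone was any of the 18 pairs of members called.

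The change of these differences with induction gave no more calls than in the pool at 250 ng. From no induction to 250 ng 2 of the 18 were called, below the 17.1% of all pairs: in tgtagGta against tgtaaGta (-0.41, SE 0.10, limma adjusted p = 0.0103) and in tgtatCta against tgtagCta (0.34, SE 0.07, limma adjusted p = 0.00384). In both pairs the member with G at position 5 was the lower one at 250 ng. From no induction to 25 ng 3 of the 18 were called, near the 13.0% of all pairs. They were the same 2 pairs and tgtacTta against tgtaaTta (-0.28, SE 0.09, limma adjusted p = 0.0423), which does not involve G. An adenosine at position 5 that was edited would be read as G as well, and its part in the values of the G elements was not tested.

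More edits per read accompanied the higher editing. Reads of the members with at least 1 edit carried a median of 1.81 edits without induction, 2.38 at 25 ng and 2.75 at 250 ng. The consensus elements had 1.87, 2.80 and 3.20, and all elements 1.83, 2.20 and 2.48. Within the members the order at 250 ng again ran from tgtagCta (2.53 edits per edited read) to tgtaaGta (2.95). The share of reads with any edit at 250 ng was 22.5 to 25.6% in the members and 26.9 to 30.1% in the consensus elements, ranges of element means that did not overlap. Both readouts come from the same reads as the editing percent.

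From 25 ng to 250 ng the gain over the non-induced level grew 2.08-fold (tgtaaTta) to 2.54-fold (tgtatTta) in the members, with a median of 2.29. In the consensus elements it grew 2.04-fold to 2.24-fold, and in all elements by a median of 2.42. In percentage points tgtaaGta gained 3.96 ± 0.646 (SD, n = 3) at 25 ng and 9.01 ± 0.115 at 250 ng, and tgtagCta 2.63 ± 0.176 and 6.28 ± 0.0669. No test was made of these ratios.

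Set beside the other fixed positions, a substitution at position 6 had a middle cost. The median difference from the consensus at 250 ng was -0.53 for the members, the same as at position 4 (-0.53), where the 12 single substitutions change the last base of the UGUA core. It was -0.73, -0.66 and -0.80 at positions 1, 2 and 3, and -0.45 and -0.42 at positions 7 and 8. At 25 ng the medians were -0.49 at position 6, -0.48 at position 4, -0.68, -0.62 and -0.69 at positions 1 to 3, and -0.42 and -0.41 at positions 7 and 8. The non-induced difference was then taken off. The median change to 250 ng was -0.50 with 9 of 12 called at position 6 and -0.59 with 12 of 12 at position 4, and to 25 ng -0.48 with 7 and -0.57 with 11. Position 7 had -0.48 with 10 called to 250 ng and -0.47 with 9 to 25 ng. Position 8 had -0.40 with 7 and -0.38 with 7 in the same order. Positions 1 to 3 had -0.66, -0.60 and -0.77 to 250 ng, with 12, 11 and 12 called. All comparisons use the same 4 consensus elements, and the differences between positions were not tested.

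The same loss of A at position 6 was followed in 216 pairs of elements that carry 1 further substitution elsewhere, with the further change in both elements. At 250 ng the element without A at position 6 was called lower in 100 of the 216 and higher in 2, where 21.4% of all pairs were called in either direction, with a median difference of -0.19. Where the further change was at position 8, 33 of 36 pairs were called lower, with a median of -0.37. At positions 7 and 4 it was 23 of 36 each, with medians of -0.29 and -0.23. Where the further change lay in the first 3 bases, 8, 10 and 3 of 36 pairs were called lower at positions 1, 2 and 3, with medians of -0.07, -0.15 and -0.06, and the 2 pairs called higher were there, 1 at position 1 and 1 at position 3. The 21.4% covers both directions, so it is not a like share for pairs called lower. Of all 4845 pairs, 425 had the element with the alphabetically later base lower and 612 had it higher. The 3 of 36 at position 3 is near the first of these shares. The counts called lower at 25 ng were 28 at position 8, 21 at position 7, 19 at position 4 and 6, 9 and 3 at positions 1 to 3. There 18.4% of all pairs were called in either direction, 370 of 4845 with the alphabetically later base lower. The difference between contexts was not tested.

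With ADARcdMUT alone the members had mean levels of 1.84% to 2.18%, and in 9 of 12 the library values overlapped those of the non-induced fusion. How many of all elements overlap in this way was not counted, so this count cannot be set against the pool. Against the non-induced fusion 0 of 12 members were called in limma, where 0.199% of all elements were called higher, and 6 members had an unadjusted p under 0.05. Without ADARcdMUT replicate 3, the library with the lowest median of the 3, 4 members were called higher. How many of all elements were called in that fit was not counted, so the 4 cannot be set against the pool. Against ADARcdMUT alone 12 of 12 members were higher with the fusion at 250 ng (100% of all elements) and at 25 ng (100%). Relative to the library median 7 members were higher at 250 ng, against 10.3% of all elements, and 6 at 25 ng, against 7.55%. The count at 25 ng fell to 2 without fusion 25 ng replicate 2, a fit in which calls of all elements were not counted.

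Within the ADARcdMUT libraries no member was called lower than its consensus element. The pair fit called 2 higher, where 11.3% of all pairs were called, tgtatCta (0.39, SE 0.09, limma adjusted p = 0.0143) and tgtacTta (0.27, SE 0.07, limma adjusted p = 0.0276). That count is near the pool's share. Single substitutions at each of the other fixed positions were also called higher, 1 to 3 of 12. In this group the consensus elements ranked 996 (tgtatAta), 966 (tgtacAta), 747 (tgtaaAta) and 489 (tgtagAta) of 1005 from the highest editing. The library values were 2.25, 2.05 and 1.95% in tgtatCta against 1.37, 1.69 and 1.75% in tgtatAta, which do not overlap. They were 2.23, 1.97 and 1.88% in tgtacTta against 1.93, 1.51 and 1.64% in tgtacAta, which overlap in replicates of different number. Without ADARcdMUT replicate 1 or replicate 2, 1 member was called, and without replicate 3 there were 3, with calls of all pairs not counted. Measured against ADARcdMUT alone, the difference from the consensus was lower in 12 of 12 members at 250 ng, where 18.6% of all pairs were called, and in 12 of 12 at 25 ng, where 14.8% were. The ADARcdMUT libraries enter both of these comparisons.

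Reads per element differed between the 250 ng fusion and ADARcdMUT libraries over much of the pool. In edgeR 5 members were higher in read share at 250 ng, where 31.7% of all elements were, and 1, tgtagCta, was lower, where 34.8% were. The higher members were tgtatTta (log2 change 0.48), tgtaaGta (0.21), tgtatCta (0.20), tgtatGta (0.16) and tgtagTta (0.13), and tgtagCta changed by -0.14. These shares of members are near those of the pool or below them. The call of tgtagCta was lost without fusion 250 ng replicate 3. The part of read share in the editing values was not tested.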

How the data were processed

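Amplicons of the recorder region were sequenced from 12 libraries of HEK293T cells, 3 in each of 4 groups taken from the sample titles. The labels' extraction text names embryos of another organism, but the source name and cell line are HEK293T. The authors deposited, per element and library, counts of reads, of reads with an edit and of edits. They also deposited a percent of adenosines edited, which equals edits over 7 times the reads, and an efficiency score, which was not used. The aligner and the edit caller are not stated in the labels or file headers. The deposited tables list only elements with over 1000 reads, and 1006 of the 1022 seen in any library were listed in all 12. Listed elements hold 99.7 to 99.8% of a library's reads. No molecular identifiers are mentioned, so reads may be PCR copies, and spread between libraries is used as the error. The chi-squared of read counts between 2 replicates was 6.24 to 202 per degree of freedom, above counting noise, and each library was kept as its own replicate.

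The value tested was log2((edits + 0.5)/(7 × reads − edits + 0.5)). R 4.3.3 with limma 3.58.1 was used for editing, as it is and centred on each library's median, and for the differences within 4845 pairs. Reads per element were tested with edgeR 4.0.16 (quasi-likelihood, TMM). Each fit took all 12 libraries, so standard errors are pooled over the 4 groups, and p-values were adjusted by Benjamini-Hochberg over all elements or pairs, with a call under 0.05. The scripts were tested on simulated data. Replicate numbers are shared between groups, but the 18 correlations of same-numbered deviations ran from -0.09 to 0.07, so libraries were not treated as paired. Alternatives were another pseudocount (5), a minimum of 5000 reads, an arcsine scale, the share of reads edited, a quasi-binomial model, other centring, fewer groups, a replicate block, DESeq2 1.42.0, library totals without scaling, and each library left out.

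All members and consensus elements are named, and of pairs between members the 6 with the largest called differences. The pairs tgtaaTta with tgtaaCta, tgtatCta with tgtagCta, tgtagTta with tgtagCta and tgtacTta with tgtaaTta were added after their values were seen. Members and lists were chosen with earlier results of these data known.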

Additional observations from a re-analysis of the deposited data

How the results depend on the processing

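Direction was followed in the centred change from no induction, in the difference from the consensus at 25 ng and 250 ng, and in its change from no induction. No member's value that was called, in the text or under the alternative, changed sign between them. Sign changes of values called in neither were not counted. With the replicate block 8 members in place of 9 were higher relative to the median at 250 ng than without induction (tgtaaCta, adjusted p = 0.0542), and 12 stayed below the consensus at each induced amount. On the arcsine scale more was called: 12 members (7 in the text) fell further below the consensus from no induction to 25 ng, 2 (0) from 25 ng to 250 ng, 11 (7) were higher relative to the median at 250 ng than with ADARcdMUT, and 1 (0) at 250 ng than at 25 ng. Calls among all elements or pairs were not counted for any alternative in this section. The member counts given here therefore cannot be set against the pool. The 2 members above the consensus within ADARcdMUT became 1 with at least 5000 reads, 1 on the arcsine scale, 0 when that group was fitted alone, and 1 to 3 with 1 library left out. DESeq2 called 1 member higher in reads at 25 ng than with ADARcdMUT and 1 lower with ADARcdMUT than without induction, where edgeR called 0 of each. With 1 library left out, the counts against ADARcdMUT at 25 ng ran from 2 to 7 (relative editing) and 0 to 4 (higher reads), and lower reads at 250 ng from 0 to 1. In the same way ADARcdMUT against no induction gave 0 to 4 members higher in editing, 0 to 1 relative to the median, 0 to 1 lower in reads and 0 to 2 higher against the consensus. With the share of reads edited, which ignores further edits in a read, tgtatGta (adjusted p = 0.0540) and tgtatTta (0.0708) were no longer called below the consensus at 250 ng, nor tgtatCta (0.0846), tgtatGta (0.176) and tgtatTta (0.0860) at 25 ng. Relative to the median it lost tgtaaCta (0.0914) and tgtacCta (0.0662) at 250 ng and tgtatGta (0.0540) at 25 ng, each against no induction, and in the change of the difference from the consensus tgtagTta at 250 ng (0.101) and tgtacGta (0.120) and tgtatCta (0.218) at 25 ng. The share of the consensus excess kept by tgtagGta at 25 ng was then -11.5%. The 5000-read minimum removes tgtatTta and 1 consensus element.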
